A study of Homo sapiens with 6 samples.

Results

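The genes described here encode the machinery that folds and untangles chromosomes for mitosis: the condensin subunits SMC2, SMC4, NCAPD2, NCAPD3, NCAPG, NCAPG2 and NCAPH, the DNA topoisomerases II TOP2A and TOP2B, and the chromosome-coating protein Ki-67, encoded by MKI67. They were chosen by name, with earlier results of these data known. Each was represented by the probe set that named it alone, 10 of 18417 genes measured. The cells were RPMI 8226, an established line grown from human multiple myeloma, a cancer of antibody-secreting plasma cells. One group received 0 Gy and the other 6 Gy of carbon ions, a particle radiation that deposits energy densely along its track. RNA was taken 1 day later and each group was measured on 3 biotin-labelled 1-colour arrays, so the groups differ in dose alone as far as the labels say. Each dose has samples numbered 1 to 3, and nothing says that they came from separate cultures; p-values therefore rest on a spread between arrays that could be technical.

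Condensins are ring-shaped motors that extrude loops of DNA. Condensin I and condensin II share the SMC2 and SMC4 arms and differ in the other subunits: NCAPD2, NCAPG and NCAPH belong to condensin I, and NCAPD3, NCAPG2 and NCAPH2 to condensin II. Topoisomerase II passes one DNA duplex through another, which lets sister chromatids separate; TOP2A is made in dividing cells and rises towards mitosis, whereas TOP2B is also made in resting cells and acts during transcription. Ki-67 covers the surface of mitotic chromosomes and is the standard stain for dividing cells in pathology, myeloma included.

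Values are the deposited log2 intensities, on which a difference of 1 is a 2-fold change. Array medians lay between 5.64 and 5.72. Upper quartiles were 7.92 to 7.96 on unirradiated arrays and 7.87 to 7.91 on irradiated ones. Arrays correlated at 0.996 to 0.998 within a dose and at 0.992 to 0.994 between doses. All 10 genes lay above every array's upper quartile on every unirradiated array, so none was dim, and no filter on low values was used. Of 9 plasma cell markers, 8 also lay above every upper quartile on all 6 arrays, and the exception was SLAMF7. None of 4 T cell, 4 myeloid or 3 fibroblast markers did, but the epithelial markers EPCAM and KRT18 did. Of the plasma cell markers, SLAMF7 rose by 0.55, CD38 fell by 0.42 and XBP1 fell by 0.23 on the log2 scale; of 4 epithelial markers EPCAM fell by 0.39, while KRT18 differed by 0.27, KRT19 by 0.12 and KRT8 by 0.01 and did not pass. Of the fibroblast markers 2 rose after irradiation, with a list median of 5.36 to 5.50 on unirradiated and 5.45 to 5.80 on irradiated arrays, near the array medians. The part of these marker changes in the results was not tested. Levels of different genes come from different probes and are not ranked against each other; comparisons between genes below are of their changes.

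MKI67 and TOP2B fell after irradiation, the first to about 52% and the second to about 70% of its unirradiated level. TOP2A stood at 96.1%, and the condensin subunits among the 10 genes ranged from 81.2% (NCAPD2) to 99.5% (NCAPG). Of the 10 genes, 4 passed the limma test in the lower direction (MKI67, TOP2B, NCAPD2 and SMC4) and 0 in the higher. Over all 18417 genes, 14.5% passed in either direction, 8.18% in the lower and 6.35% in the higher. The estimate was below 0 for all 10 genes, against 40.2% of all genes, and the median log2 difference was -0.20 against 0.04 over all genes. The irradiated arrays all lay below the unirradiated arrays for 6 of the 10, which adds SMC2 and NCAPD3 to those that passed. Of all genes, 15.7% separated in this way, and 34.7% in either direction. Since the 10 were chosen with earlier results known, these shares are a description and no test of the set. In bulk RNA, fewer dividing cells and less mRNA per cell cannot be told apart. With irradiated replicate 1, unirradiated replicate 1 or unirradiated replicate 2 left out, 2 of the 10 passed, and the count over all genes went from 2676 to 1584 (unirradiated replicate 1 omitted) and 1471 (unirradiated replicate 2).

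**Figure D1:**
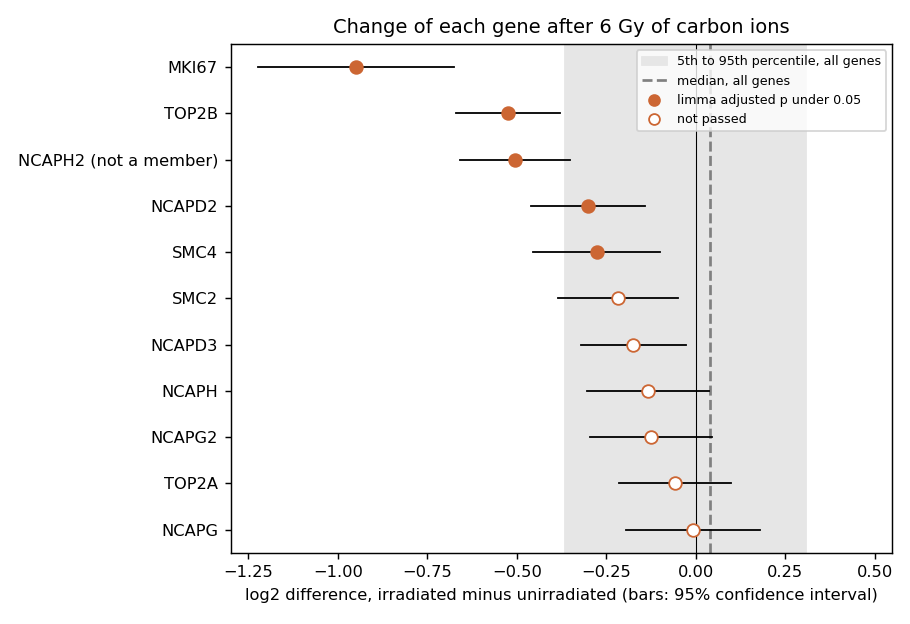
The log2 difference between irradiated and unirradiated arrays (horizontal axis) with its limma 95% confidence interval (bars) for the 10 genes and NCAPH2, the remaining condensin II subunit; filled points passed at an adjusted p under 0.05, the band spans the 5th to the 95th percentile of all genes (-0.37 to 0.31) and the dashed line is their median (0.04). MKI67 and TOP2B lie clear of the band, and TOP2A and NCAPG lie near 0.

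Promoters of the 4 genes that passed and of TOP2A are shown because 2 short promoter elements are known to time many mitotic genes. The cell cycle homology region, with the core TTTGAA, is bound by complexes that keep such genes off in resting cells, and CCAAT boxes are bound by NF-Y. Both were searched on both strands in RefSeq windows (GRCh38.p14) from 250 bases before to 50 bases after each annotated start. All 10 genes matched, with 14 windows. TTTGAA was found in 9 of the 14 windows, against 15.2% of all 35116 windows in the table, and CCAAT in 6 of the 14, against 34.6%. By gene, 9 of 10 held TTTGAA, NCAPH being the exception, and 6 of 10 held CCAAT. Of all 27305 genes with a window, 4961 held TTTGAA and 10846 held CCAAT. In the fixed list of G2/M genes, 21 of 33 windows held TTTGAA and 23 held CCAAT. The 250 bases before the start are printed 5′ to 3′ on the gene's strand, with matches in capitals; a match on the opposite strand appears as its reverse complement. SMC4 and TOP2B each had 2 annotated starts, and the window that held a match is the one printed.
MKI67 (chr10:128126424-128126673, minus strand): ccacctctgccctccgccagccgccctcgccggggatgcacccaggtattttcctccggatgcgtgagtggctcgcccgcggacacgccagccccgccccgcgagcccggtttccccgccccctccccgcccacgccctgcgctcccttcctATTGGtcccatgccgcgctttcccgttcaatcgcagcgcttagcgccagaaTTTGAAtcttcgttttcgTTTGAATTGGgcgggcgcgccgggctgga
TOP2B (chr3:25664908-25665157, minus strand): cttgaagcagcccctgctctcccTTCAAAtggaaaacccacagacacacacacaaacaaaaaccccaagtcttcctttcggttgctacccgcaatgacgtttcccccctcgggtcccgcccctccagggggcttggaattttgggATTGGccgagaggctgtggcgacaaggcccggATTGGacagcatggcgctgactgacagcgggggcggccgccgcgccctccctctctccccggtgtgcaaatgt
TOP2A (chr17:40417897-40418146, minus strand): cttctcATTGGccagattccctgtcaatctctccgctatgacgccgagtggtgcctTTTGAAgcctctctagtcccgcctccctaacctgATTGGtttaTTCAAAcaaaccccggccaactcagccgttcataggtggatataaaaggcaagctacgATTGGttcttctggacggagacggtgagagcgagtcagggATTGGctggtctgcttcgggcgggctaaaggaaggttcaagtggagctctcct
NCAPD2 (chr12:6493852-6494101, plus strand): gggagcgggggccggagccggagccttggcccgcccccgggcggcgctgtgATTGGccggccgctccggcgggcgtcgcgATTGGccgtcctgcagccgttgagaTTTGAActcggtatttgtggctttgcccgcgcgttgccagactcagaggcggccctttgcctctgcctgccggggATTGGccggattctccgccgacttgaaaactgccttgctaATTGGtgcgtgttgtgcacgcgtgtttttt
SMC4 (chr3:160399400-160399649, plus strand): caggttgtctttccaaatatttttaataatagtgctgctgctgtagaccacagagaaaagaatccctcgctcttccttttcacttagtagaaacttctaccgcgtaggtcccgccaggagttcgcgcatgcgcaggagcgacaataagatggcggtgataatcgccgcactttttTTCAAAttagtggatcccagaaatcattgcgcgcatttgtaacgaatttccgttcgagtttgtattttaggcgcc
MKI67 held 2 matches to TTTGAA, beginning 47 and 29 bases before the start, and 2 reversed CCAAT boxes, one of which shares 1 base with a TTTGAA match. TOP2A held 2 and 4 matches, and NCAPD2 1 and 4. The other TOP2B window held neither. Whether these letters go with the changes was not tested, and a match is a description of these letters and not a measured binding site.

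MKI67 measured 8.55, 8.65 and 8.59 on the unirradiated arrays and 7.45, 7.51 and 7.97 on the irradiated arrays. The groups did not overlap, and irradiated replicate 3 lay 0.45 above the nearer of the other irradiated arrays, still 0.58 below the lowest unirradiated one. The means were 8.59 ± 0.05 and 7.64 ± 0.28 (SD, n = 3), and 2.05% of all genes had a larger SD among the irradiated arrays. The log2 difference was -0.95 ± 0.12 (SE), a 1.93-fold decrease to 51.8% of the unirradiated level (95% interval 42.9% to 62.6%). The limma adjusted p was 0.00107. Only 0.375% of genes had a lower difference, which puts MKI67 at rank 70 of 18417 from the lowest. With any 1 array left out the log2 difference stayed between -1.11 and -0.85, and the lowest value was that without irradiated replicate 3 (limma adjusted p 8.24e-05).

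Of the topoisomerases II, TOP2B passed the test and TOP2A did not. TOP2B measured 8.87, 8.83 and 8.91 without irradiation and 8.32, 8.32 and 8.38 after it. The arrays of each dose lay within 0.1 of one another and the groups stood well apart. Its means were 8.87 ± 0.04 and 8.34 ± 0.04 (SD, n = 3), a log2 difference of -0.52 ± 0.07 (SE) and a level of 69.5% (95% interval 62.9% to 76.9%), with a limma adjusted p of 0.000836. It passed with each of the 6 arrays left out, with adjusted p up to 0.00599.

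TOP2A, the form tied to cell division, measured 10.92, 10.95 and 10.88 without and 10.83, 10.95 and 10.80 after irradiation. The groups overlapped, since irradiated replicate 2 lay level with the highest unirradiated array. Its log2 difference was -0.06 ± 0.07 (SE), a level of 96.1% with a 95% interval from 86.2% to 107%, and it did not pass (limma adjusted p 0.622). The difference was -0.025 without irradiated replicate 3, -0.104 without irradiated replicate 2 and -0.087 with array medians subtracted. The low end of the interval from all 6 arrays lies above the estimates for TOP2B and MKI67. Within each array, TOP2A minus TOP2B, set to 0 at the mean of the unirradiated arrays, was 0.00, 0.07 and -0.08 on the unirradiated arrays and 0.46, 0.58 and 0.36 on the irradiated ones. The change was 0.47 ± 0.08 (SE), with no overlap between groups. The exact two-sided permutation test gave p = 0.1, or 0.4 adjusted over the 4 pairs compared. With 3 arrays against 3 this test cannot give a p under 0.1, whatever the size of the change. Its p therefore cannot decide whether TOP2A and TOP2B changed unequally.

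**Figure D2:**
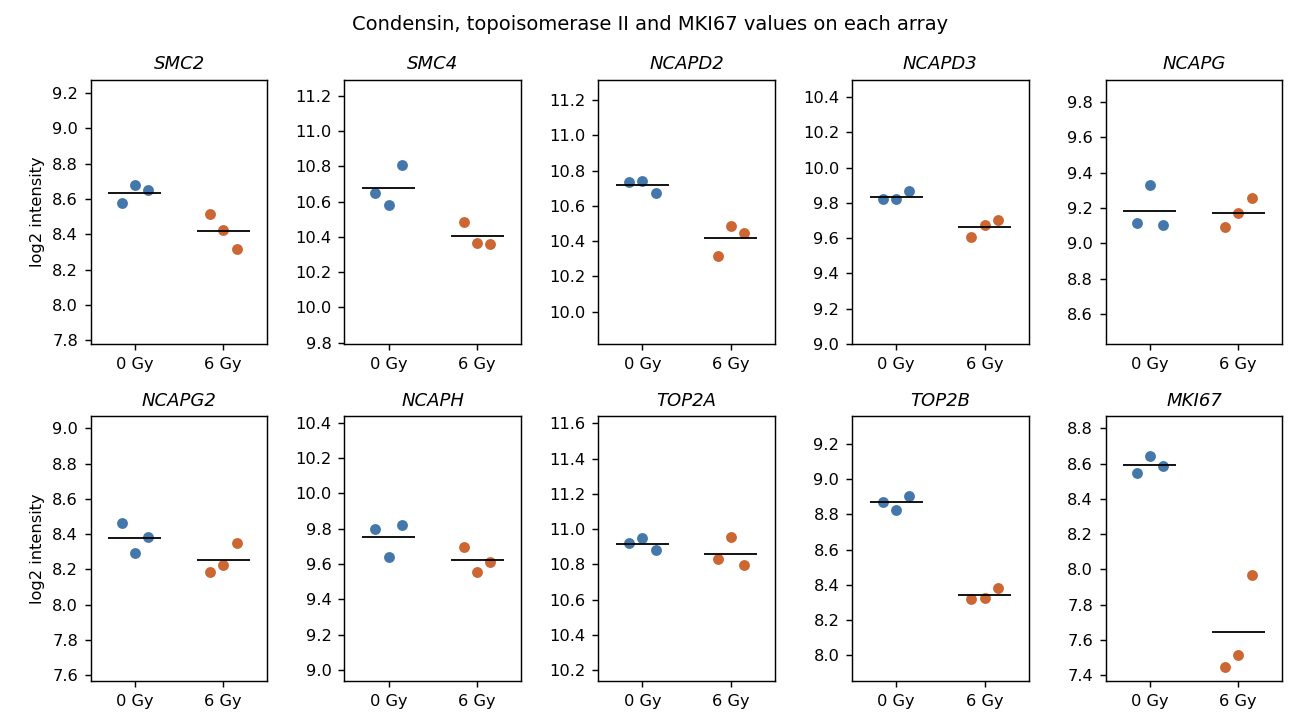
Log2 intensity (vertical axis) of each gene on the 3 unirradiated (0 Gy, blue) and 3 irradiated (6 Gy, orange) arrays, replicates 1 to 3 from left to right, with lines at the group means; every panel spans 1.5 log2 units. MKI67 and TOP2B separate widely, and the groups overlap for NCAPG, NCAPG2, NCAPH and TOP2A.

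The shared condensin arms had similar, small differences, of which that of SMC4 passed. SMC4 measured 10.65, 10.58 and 10.81 without and 10.49, 10.36 and 10.36 after irradiation. The groups did not overlap, and the gap between them was small beside the spread of the unirradiated arrays. The log2 difference was -0.28 ± 0.08 (SE), a level of 82.5% (95% interval 72.9% to 93.4%), and it passed narrowly (limma adjusted p 0.0452). The call ended with any 1 of the 6 arrays left out, with adjusted p from 0.0549 without irradiated replicate 1 to 0.136 without unirradiated replicate 3. SMC2, its partner, measured 8.58, 8.68 and 8.65 without and 8.52, 8.42 and 8.31 after irradiation, again without overlap. Its log2 difference of -0.22 ± 0.07 (SE) did not pass (limma adjusted p 0.083), although its own 95% interval, which is not adjusted for the number of genes, ran from 76.6% to 96.6%. SMC2 minus SMC4 within arrays changed by 0.06 ± 0.08 (SE), with overlapping groups (exact permutation p = 0.6, 0.6 adjusted over the 4 pairs). That change was 0.0017 with unirradiated replicate 3 omitted and 0.13 with unirradiated replicate 2 omitted.

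Among the subunits of condensin I, which reaches chromosomes once the nuclear envelope has broken down, NCAPD2 alone passed. This HEAT-repeat subunit measured 10.73, 10.74 and 10.675 without and 10.31, 10.485 and 10.45 after irradiation, with no overlap. The log2 difference was -0.30 ± 0.07 (SE), a level of 81.2% (95% interval 72.7% to 90.7%) with a limma adjusted p of 0.0209. The call ended without irradiated replicate 1 (0.0708), unirradiated replicate 1 (0.0732) or unirradiated replicate 2 (0.0765). NCAPH, the kleisin that closes the ring, measured 9.80, 9.64 and 9.82 without and 9.70, 9.55 and 9.61 after irradiation. Its groups overlapped, and the log2 difference of -0.13 ± 0.08 (SE) did not pass (limma adjusted p 0.279). NCAPG, the other HEAT-repeat subunit, measured 9.11, 9.33 and 9.10 without and 9.09, 9.17 and 9.26 after irradiation. Its groups overlapped almost fully: the log2 difference was -0.01 ± 0.08 (SE; 95% interval 87.4% to 113% of the unirradiated level; limma adjusted p 0.96), and its sign turned with quantile normalization and with irradiated replicate 1 or unirradiated replicate 2 left out (0.0091, 0.033 and 0.066).

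The condensin II subunits sit in the nucleus through interphase. NCAPD3 measured 9.82, 9.82 and 9.86 without and 9.61, 9.67 and 9.70 after irradiation. The arrays were tight and did not overlap, yet the log2 difference of -0.17 ± 0.07 (SE) did not pass (limma adjusted p 0.106). NCAPG2 measured 8.46, 8.29 and 8.39 without and 8.19, 8.23 and 8.35 after irradiation, with overlap and a log2 difference of -0.13 ± 0.08 (SE; limma adjusted p 0.304). NCAPH2, the condensin II kleisin, lies outside the 10 genes and was taken from the list of condensin partners. It measured 7.60, 7.59 and 7.49 without and 7.10, 7.06 and 7.01 after irradiation, with no overlap. It fell by 0.50 ± 0.07 (SE) on the log2 scale, to 70.5% (limma adjusted p 0.00145), and passed with each of the 6 arrays left out (up to 0.00979). Of the 8 condensin subunits with NCAPH2 included, its change was thus the lowest, though no test compared it with the others.

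Matched subunits of the complexes were also compared within arrays. NCAPD2 minus NCAPD3 changed by -0.13 ± 0.05 (SE), with overlapping groups (exact permutation p = 0.2, 0.4 adjusted over the 4 pairs). NCAPG minus NCAPG2 changed by 0.12 ± 0.12 (SE), where the unirradiated arrays spread from -0.15 to 0.23 (exact permutation p = 0.4, 0.533 adjusted). Leaving out an unirradiated array moved this change to 0.04 (replicate 1), 0.07 (replicate 3) or 0.23 (replicate 2). As for the topoisomerases, this permutation test cannot give a p under 0.1 with 3 arrays against 3. These p-values therefore cannot show whether the condensin I and condensin II forms changed alike.

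**Figure D3:**
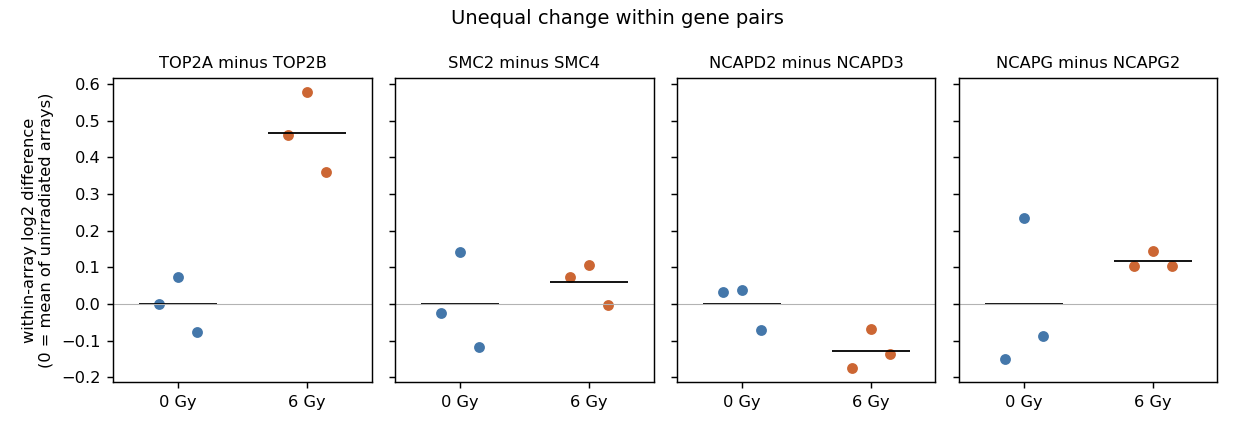
Within-array log2 difference between the genes of each pair (vertical axis, 0 at the mean of the unirradiated arrays) on the 3 unirradiated (0 Gy) and 3 irradiated (6 Gy) arrays, replicates 1 to 3 from left to right, with lines at the group means. TOP2A minus TOP2B lies between 0.36 and 0.58 on the irradiated arrays, and the groups overlap in the other pairs.

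**Figure D4:**
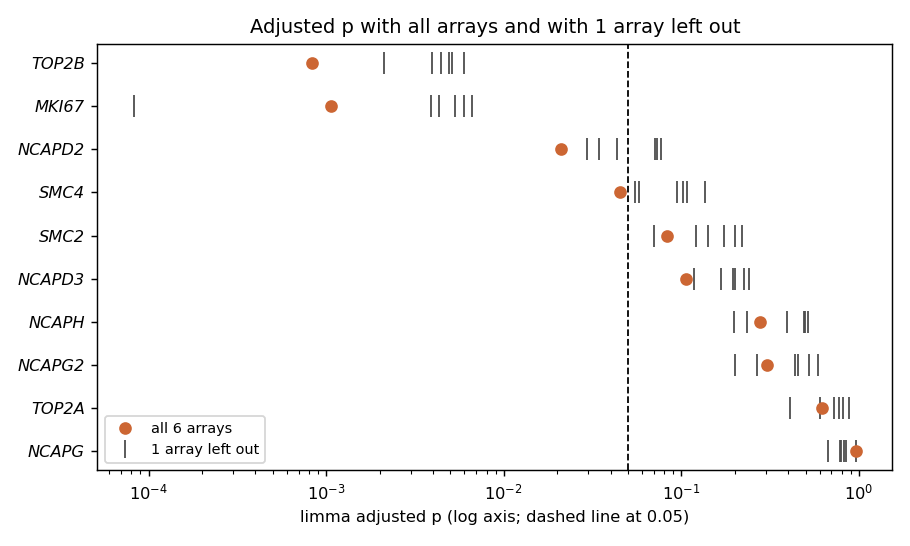
Limma adjusted p of each gene (horizontal log axis, dashed line at 0.05) with all 6 arrays (points) and with 1 array left out (ticks). All ticks of TOP2B and MKI67 lie below 0.05, those of NCAPD2 lie on both sides, and those of SMC4 all lie above it.

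The list of condensin partners held genes that load, drive or regulate condensin. Of its 14 measured genes, 2 rose and 1, NCAPH2, fell, beside 6.35% and 8.18% of all genes. Their median log2 difference was 0.07. The mitotic kinase gene AURKA rose by 0.32 and BIRC5, whose product survivin carries Aurora B to chromosomes, rose by 0.26 (limma adjusted p 0.0278 and 0.0469). CDK1, the kinase that phosphorylates condensin at mitotic entry, differed by 0.19 ± 0.10 (SE; limma adjusted p 0.233) and its cyclin CCNB1 by 0.08 ± 0.07 (SE; 0.527). CDK1 differed by 0.092 without irradiated replicate 3 and by 0.125 without unirradiated replicate 2. CCNB1 differed by 0.032 without unirradiated replicate 2, 0.048 without irradiated replicate 2, 0.124 without irradiated replicate 3 and 0.047 with array medians subtracted. The AURKA call ended with 1 of 4 arrays left out (irradiated replicates 1 and 2, unirradiated replicates 1 and 2; up to 0.0964) and that of BIRC5 with each left out except irradiated replicate 1 (up to 0.135). NCAPH2 was the 1 gene of the list left when irradiated replicate 2 or either of unirradiated replicates 1 and 2 was omitted.

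One list joined genes of the perichromosomal layer, the sheath that Ki-67 organizes, with partners of Ki-67 (together, perichromosomal genes). They went both ways: 2 of 10 fell and 1 rose, beside 8.18% and 6.35% of all genes. Their median was -0.03. KIF15, a spindle kinesin that binds Ki-67, fell by 0.64 (limma adjusted p 0.000958), and CBX1, a heterochromatin protein, fell by 0.35 (0.0171). CDCA2, which like Ki-67 targets protein phosphatase 1 to chromosomes, rose by 0.27 (0.0474). With 1 array left out the call ended for CBX1 (irradiated replicate 2, unirradiated replicates 1 and 2; up to 0.0691) and for CDCA2 (each except irradiated replicate 3; up to 0.165). KIF15 alone passed when any of the 3 arrays named for CBX1 was omitted.

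Of 11 other topoisomerases and repair factors of trapped topoisomerase, 1 rose and 1 fell, beside 6.35% and 8.18% of all genes. Their median was -0.08. TOP1, which relaxes DNA ahead of polymerases, rose by 0.27 and its mitochondrial relative TOP1MT fell by 0.38 (limma adjusted p 0.0247 and 0.0306). Neither passed without irradiated replicate 1, unirradiated replicate 1 or unirradiated replicate 2, and 1 of the 2 passed without irradiated replicate 2 or unirradiated replicate 3. The TOP1 call also ended without irradiated replicate 3 (0.0588).

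Of 7 other genes of the SMC family, the ATPase family of SMC2 and SMC4, 5 fell and 0 rose. Over all genes 8.18% fell and 6.35% rose. The median log2 difference of the 7 was -0.55, against 0.04 over all genes. SMC6 and SMC5, which form a complex that acts in DNA repair, fell by 0.72 and 0.55; SMC3, of cohesin, fell by 0.62; and RAD50, an SMC-like protein that tethers broken DNA ends, fell by 0.66 (limma adjusted p from 0.000347 for RAD50 to 0.00271 for SMC6). The fifth was SMC1A, named after its value was seen, which fell by 0.29 (0.0295). The SMC1A call ended without irradiated replicates 1 or 2 or unirradiated replicates 1 or 2 (up to 0.111), and the others that fell passed with each array left out. SMCHD1 and SMC1B did not pass. SMC1B was dim, with means of 3.59 without and 3.48 after irradiation, below every array's lower quartile (3.89 to 3.97).

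Among 27 G2/M genes measured, 5 fell and 2 rose, beside 8.18% and 6.35% of all genes. The median of the list was -0.06. CENPE, a kinetochore motor, fell by 1.11 and CENPF, another kinetochore protein, by 0.68, while the checkpoint kinase gene BUB1 rose by 0.41 (limma adjusted p 0.00015, 0.000746 and 0.00427). NDC80, which anchors microtubules, fell by 0.40 (0.0076). Named after their values were seen, ASPM and NUF2 fell by 0.33 and 0.29, and CDC20 rose by 0.24. With 1 array left out the call ended for CDC20 with any of the 6 (up to 0.137) and for NUF2 without irradiated replicates 1 or 3 or unirradiated replicates 2 or 3 (up to 0.142). CENPE thus had the lowest difference of this list, of which 20 genes did not pass. Outside the 27, MKI67 fell by 0.95, and TOP2A and CCNB1 did not pass.

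Regulators of G2/M transcription counted 3 lower and 0 higher of 16, with a median of -0.10. That is 3 called of 16, beside 14.5% of all genes. RBL2, a pocket protein, fell by 0.47, its partner E2F4 by 0.31 and the NF-Y subunit gene NFYC by 0.28 (limma adjusted p 0.0049, 0.014 and 0.0285). The other 13, including the NF-Y genes NFYA and NFYB and the LIN genes, did not pass. Some of them differed by about as much as NFYC. RBL1 differed by -0.32, NFYA by -0.24 and NFYB by -0.28 (limma adjusted p 0.0508, 0.0548 and 0.115). The estimate was below 0 for 10 of the 16. The activator FOXM1 differed by 0.15 ± 0.07 (SE) and did not pass (limma adjusted p 0.175). Without unirradiated replicates 1 or 2 only 1 passed, RBL2, and without unirradiated replicate 3 there were 5. The E2F4 call ended without unirradiated replicate 1 (0.0557) or 2 (0.052), and that of NFYC without irradiated replicates 1 or 2 or unirradiated replicates 1 or 2 (up to 0.109).

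**Figure D5:**
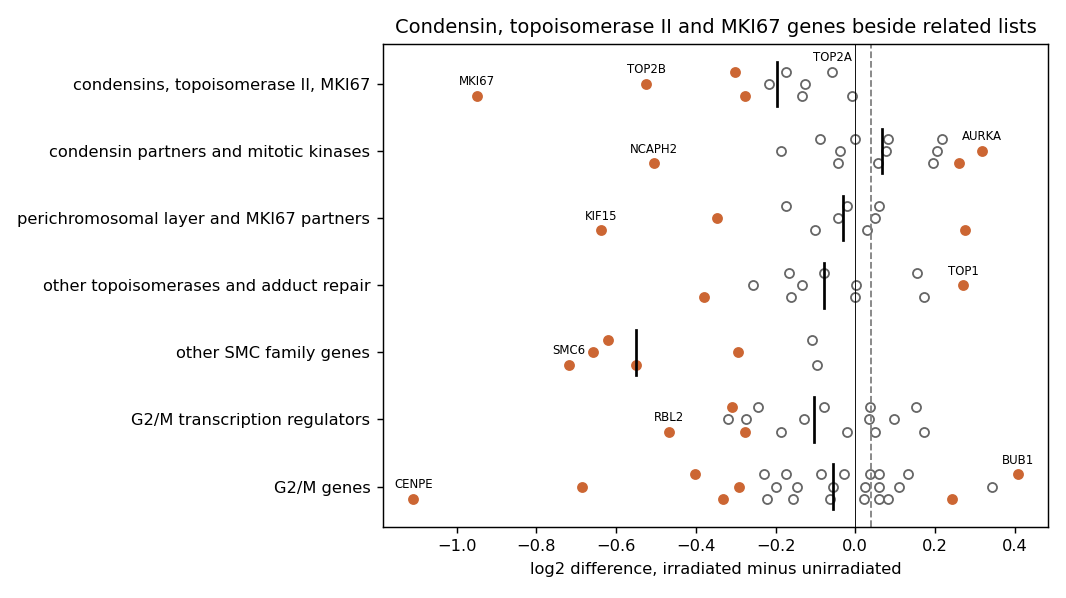
Log2 difference between irradiated and unirradiated arrays (horizontal axis) for each gene of the 10 and of the 6 related lists; filled points passed at a limma adjusted p under 0.05, bars are list medians and the dashed line is the median of all genes (0.04). MKI67 and TOP2B lie at the low end of their row, whose median is -0.20, and the other SMC family genes have a median of -0.55.

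The genes whose 6 values ran closest to those of MKI67, each centred on its own mean, were ZBTB14, LINC01296, FAM219B, PCK2 and NCR3LG1. Their root mean square differences from MKI67 were 0.10 to 0.12 on the log2 scale, with Pearson r from 0.97 to 0.98 over the 6 arrays, and their log2 differences lay between -0.92 and -0.82. The nearest to SMC4 were PHACTR4, SINHCAF, CYTH3, ITPKC and TMEM87A, at 0.03 to 0.05, with log2 differences from -0.33 to -0.25. The nearest to TOP2A were ATP5ME, TERB1, TM2D3, RO60 and TOM1, at 0.01 to 0.02, none of which passed the limma test (adjusted p 0.536 to 0.711). All of these likenesses share the same 6 arrays, and none of the 15 genes was on the related lists.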

How the data were processed

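The authors' deposited values for 33297 probe sets on 6 arrays were used as given and read as log2 intensities. The base is inferred from their range, so every fold rests on it. Of the normalization, background correction and software, the labels say nothing (not given in the sources used here). If the arrays were scaled to one another, a shift common to all transcripts would be lost. No detection calls were used.

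Probe sets with 1 symbol in the platform annotation (19460) were kept, and the brightest per gene over all 6 arrays gave 18417 genes. Each of the 10 genes had 1 probe set. The test was limma 3.58.1 in R 4.3.3, two-sided, without covariates, with Benjamini-Hochberg adjustment over all genes; an adjusted p under 0.05 is called rose or fell. Intervals and standard errors are limma's, except those of pairs, which come from the within-array differences. Pairs used exact permutation in scipy 1.17.1. The fit was tested on simulated data.

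The 10 genes and the lists were chosen with earlier results of these data known. Named genes are the 10, up to 4 called genes of each list with the largest difference (or the 2 with the smallest p), CCNB1, CDK1, FOXM1, NCAPH2, and the 5 genes nearest to MKI67, TOP2A and SMC4. Of the listed genes, MCPH1, M18BP1, CSNK2A1 and CENPA are not analysed here. Alternatives were a replicate block, each array left out, a filter on dim genes, quantile and median scaling, a trended robust prior, array weights, other probe set rules and stricter thresholds. A description against protein length was planned. Genomic length was used instead, and it gives no measure of protein length. Plots used Python 3.11.15 and matplotlib 3.10.9.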

Additional observations from a re-analysis of the deposited data

How the results depend on the processing

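With 3 arrays a dose, small changes depended on the settings: MKI67 and TOP2B passed under all 13 alternative fits, whereas NCAPD2 passed under 10, SMC4 under 5, SMC2 under 2 and NCAPD3 under 1. NCAPG turned sign, to 0.0091 with quantile normalization, and ranged from -0.049 to 0.066 with 1 array left out. When every probe set was tested, there were more tests to adjust for. Then 1381 genes passed in place of 2676, and 2 of the 10 in place of 4. Condensin partners and perichromosomal genes had 1 each and other topoisomerases 0. At an adjusted p under 0.01, 1077 genes and 2 of the 10 passed, with 1 condensin partner, 1 perichromosomal gene, 0 topoisomerases, 1 G2/M regulator and 4 G2/M genes. With a 1.5-fold minimum these were 388, 1, 0, 1, 0, 0 and 2, beside 3 SMC family genes. G2/M regulators counted 5 with array medians subtracted, with array weights and with the dimmest genes left out, and 6 with an intensity trend and robust prior. With 1 array left out, counts ran from 1471 to 2184 genes, 2 to 3 of the 10, 1 to 2 condensin partners, 1 to 3 perichromosomal genes, 0 to 2 topoisomerases, 4 to 5 SMC family genes, 1 to 5 G2/M regulators and 5 to 6 G2/M genes. The cause of these shifts was not tested.

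Deviations of same-numbered arrays from their group means correlated at r of -0.04, 0.10 and -0.11 over genes. Not every array correlated best with its own number. The labels do not say whether the numbers pair the samples, and deviations within groups of 3 arrays cannot settle it. With the number as a replicate block 1919 genes and 3 of the 10 passed, SMC4 being lost (limma adjusted p 0.0796), with 1 condensin partner and 0 topoisomerases. The pair changes kept their sign under every alternative run.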

Other observations

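Genomic length did not order the changes of the 10 genes, which span 29.4 to 75.3 kb in RefSeq: across them Pearson r was 0.13 and Spearman rho -0.07 (10 genes on the same arrays, not independent). Over 18389 genes with a length, rho was -0.10.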
